A study of Mus musculus with 2 samples.

Results

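Plasma cells with high Jchain were examined in single-cell RNA-seq libraries of mouse bone marrow, 1 library from 1 control mouse and 1 library from 1 DKO mouse. The members were chosen by their own UMIs (unique molecular identifiers, the counted RNA molecules): among barcodes with at least 500 UMIs, at most 20% of them mitochondrial and under 40% of them from hemoglobin genes, a plasma cell had at least 20 Jchain UMIs, at least 3 UMIs summed over Mzb1, Derl3 and Xbp1, and 0 Siglech UMIs. This left 38 of 19764 control barcodes and 38 of 13927 DKO barcodes. The control mouse was a littermate with floxed Ddx41 (Ddx41 fl/fl), no VavCre and wild-type cGas. The DKO mouse was VavCre:Ddx41 fl/fl cGas-/-, lacking cGas in every cell and Ddx41 where VavCre, active across the blood lineages, had recombined the floxed alleles. Both mice were 2 months old, and femoral marrow was flushed without a sort. Since there was 1 mouse per genotype, no difference between genotypes was tested. All intervals are exact 95% intervals that cover counting error only.

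Plasma cells are the end stage of the B cell lineage and secrete antibody. Each makes 1 heavy chain class, decided by the constant gene joined to its variable region, and 1 light chain, kappa or lambda. J chain, the product of Jchain, links IgM and IgA units into polymers and is also transcribed in plasma cells that make IgG, which is not polymerised. The load of secreted protein is carried by an enlarged endoplasmic reticulum (ER) under the transcription factor XBP1, while PRDM1 and IRF4 hold the plasma cell state and the B cell programme under PAX5 is shut down. Long-lived plasma cells lodge in the bone marrow.

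The genes that chose the cells are given as a description. Jchain ran from 23 to 2336 UMIs per control cell, with a median of 844, and from 21 to 1891 per DKO cell, with a median of 492.5. Mzb1, a chaperone of immunoglobulin assembly, had a median of 29 UMIs in control and 24.5 in DKO cells. Xbp1 had medians of 19 and 15 UMIs. Derl3, of the machinery that removes misfolded proteins from the ER, had a median of 2 UMIs in both libraries and was at 0 in 8 control and 11 DKO cells. Around the Jchain threshold the control library held an empty stretch, with the highest barcode outside at 5 UMIs and the lowest members at 23, 37 and 63. In the DKO library the highest barcodes outside had 17, 17, 16, 16 and 12 UMIs and the lowest members 21, 24 and 30. Of barcodes at or above 20 Jchain UMIs, 1 control and 6 DKO barcodes fell short on Mzb1, Derl3 and Xbp1, and 1 control barcode with 847 Jchain UMIs was dropped for Siglech. Another 2 barcodes in each library had 20 or more Jchain UMIs but failed the hemoglobin limit.

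Plasma cell markers that the rule did not use were present. Sdc1, the surface proteoglycan CD138, was detected in 33 control and 28 DKO cells. Tnfrsf17, the survival receptor BCMA, was detected in 34 and 26 cells, Prdm1 in 30 and 15, and Irf4 in 33 and 25. In barcodes with at least 75% hemoglobin UMIs, which should lack these genes, Sdc1 had a UMI in 0.126% (control, median depth 5266 UMIs) and 0.0733% (DKO, 8028 UMIs), and Tnfrsf17 in 0% of both. Depth differed among members, so each cell was thinned to 3000 UMIs, which left out no control and 8 DKO cells. Prdm1 was then detected in 26.3% of control (13.4 to 43.1) and 16.7% of DKO cells (5.64 to 34.7), and Tnfrsf17 in 11 of 38 control (15.4% to 45.9%) and 6 of 30 DKO cells (7.71% to 38.6%), with overlapping intervals.

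Plasma cells were 0.192% of control (0.136 to 0.264) and 0.273% of DKO barcodes (0.193 to 0.374), and the intervals overlapped. Cells were called differently in the deposited files, since the control file lists all droplets and the DKO file lists called cells only, and the same UMI minimum was applied to both. With barcodes under 40% hemoglobin as the denominator, which takes out most red cell precursors, the shares were 0.306% (0.217 to 0.420) and 0.453% (0.321 to 0.622). Of the barcodes with at least 500 UMIs, 82 had the same sequence in both libraries.

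The members carried much RNA. Control plasma cells had 3692 to 49450 UMIs, with a median of 19444, and DKO plasma cells 1082 to 60126, with a median of 20712, against medians of 4764.5 and 6954 over all barcodes of each library. Immunoglobulin genes made up 49.5% of the pooled UMIs in control and 54.2% in DKO plasma cells. Single cells ran from 3.15% to 69.3% (control) and from 21.8% to 68.5% (DKO), so the cells of both libraries covered the same range apart from 3 control cells under 20%. A shallow group stood apart: 11 DKO but only 2 control cells had fewer than 5000 UMIs. The 11 DKO cells had 287 to 1018 detected genes and a median of 51.2% immunoglobulin UMIs, close to that of the other cells; 7 of them expressed IgG and 4 IgM.

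**Figure D1:**
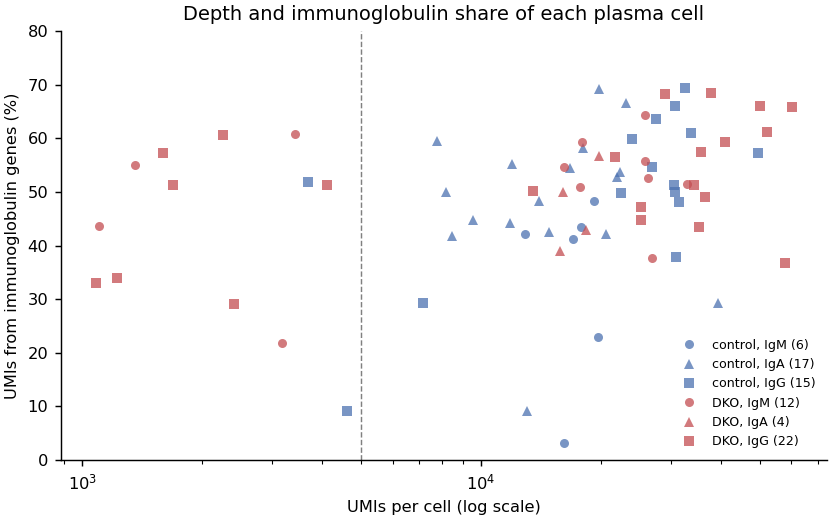
Each point is 1 plasma cell, with its UMIs on a log axis and the percent of its UMIs that came from immunoglobulin genes; colour gives the library, shape the heavy chain class, and the dashed line stands at 5000 UMIs. The 11 DKO and 2 control cells left of the line spread over much of the range of immunoglobulin share seen at greater depth.

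The libraries differed in the heavy chain class of their plasma cells. IgA was the commonest class of the control library and was called in few cells of the DKO library, with IgM and IgG2c taking a larger share there. The class of a cell was the constant gene with the most UMIs, and a call was possible in 38 of 38 cells of each library. IgA was called in 17 control cells (44.7%, 28.6 to 61.7) and 4 DKO cells (10.5%, 2.94 to 24.8), and these intervals did not overlap. IgM was called in 6 (15.8%, 6.02 to 31.3) and 12 cells (31.6%, 17.5 to 48.7). IgG2c was called in 1 (2.63%, 0.0666 to 13.8) and 8 cells (21.1%, 9.55 to 37.3). IgG2b was called in 12 cells and IgG1 in 2 cells of each library. IgG as a whole made up 15 control (39.5%, 24.0 to 56.6) and 22 DKO cells (57.9%, 40.8 to 73.7). IgD, IgG3 and IgE were called in 0 of 38 cells of either library, which allows a share of up to 7.89% at a limit of 3 cells of 38 (9.25% by the exact interval). The genotype, the mouse and the library cannot be told apart in these shares, and the spread between mice of 1 genotype was not measured. Jchain chose the cells and its level differed between classes, and the part of this in the class shares was not tested.

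**Figure D2:**
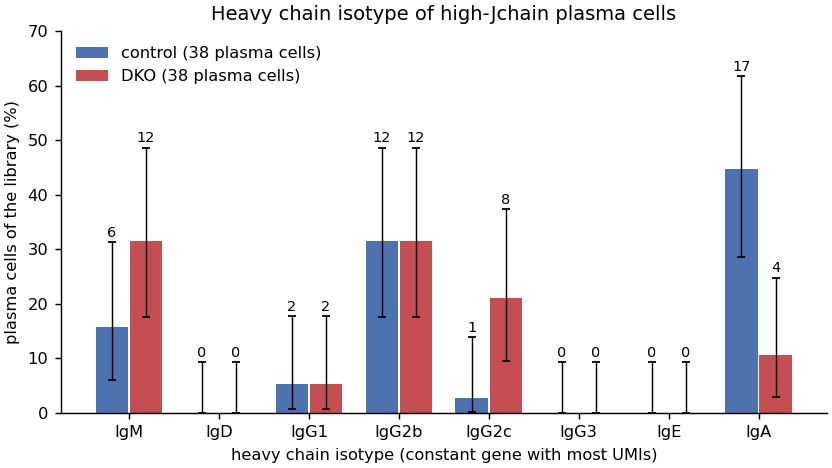
Bars give the percent of the 38 plasma cells of each library called for each heavy chain class, with exact 95% counting intervals as error bars and the number of cells above each. IgA stood at 17 control against 4 DKO cells, IgG2b at 12 in both, and IgG2c at 1 against 8.

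The top constant gene held at least 98.3% of a control cell's heavy constant UMIs and at least 97.2% of a DKO cell's, from 200 to 4651 and from 53 to 6300 UMIs per cell. Other constant genes were rare outside the called class, with 33 Ighe UMIs, all in 1 DKO cell, and 3 Ighd UMIs over all control cells. The top light chain held at least 80.6% and 96.1% of a cell's light constant UMIs, the lowest in a control cell with 125 Igkc UMIs. Kappa was the light chain of 34 control and 37 DKO cells, and lambda of 4 (10.5%, 2.94 to 24.8) and 1 (2.63%, 0.0666 to 13.8). Free immunoglobulin RNA was present in other droplets at a much lower level: barcodes with at least 75% hemoglobin UMIs had an Igkc UMI in 31.1% (control) and 29.2% (DKO), at 91.2 and 72.1 CPM (the count scaled to 1000000 UMIs), while plasma cells stood at 361690 and 419480 CPM. In control droplets of up to 100 UMIs, which hold free RNA, Igkc was at 2076 CPM. The heavy constant genes lie side by side on chromosome 12 of GRCm38, on the minus strand, from Ighm (113418558 to 113422730) through Ighg2b (113302965 to 113307933) and Ighg2c (113285325 to 113288932) to Igha (113254830 to 113260236). Igkc lies on chromosome 6 (70726435 to 70726966) and Jchain on chromosome 5 (88519809 to 88527891).

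Variable genes were read at the RNA level only, since 3′ libraries rarely reach the variable region. A heavy V gene was called in 27 control cells, over 16 genes, and in 24 DKO cells, over 21 genes, and 7 of the 30 heavy V genes were found in both libraries. A heavy and a light V gene were both called in 18 control cells, with 12 different pairs, and in 19 DKO cells, with 18 pairs. In some of these cells the light V gene was Iglv1 although the constant gene was kappa, so those pairs do not describe their light chain. In the control library 3 cells shared Ighv1-39 with Igkv8-28, of which 2 were IgG2b and 1 was IgA. Pairs of control cells shared Ighv1-82 with Igkv1-117 (both IgA), Ighv2-3 with Igkv13-85 (both IgA) and Ighv5-9-1 with Igkv16-104 (both IgM). Another 2 control cells (IgG2b and IgG2c) shared Ighv6-6 with Iglv1, but both were kappa cells by their constant gene. The only shared pair of the DKO library was Ighv1-53 with Igkv3-4 in 1 IgG2b and 1 IgM cell, and no pair was shared between libraries. Igkv3-4 was the light V gene of 6 DKO cells and 0 control cells. Iglv1 topped the light V counts of 9 control and 4 DKO cells, but 5 and 4 of these, respectively, were kappa cells by their constant gene. An Iglv1 call alone therefore did not identify a lambda cell, although all lambda cells of the control library had one. Whether cells that share V genes descend from 1 clone was not tested, since junction sequences were not in the counts.

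A small set of genes differed between classes in the same direction in both mice. IgG cells carried several times more Slpi and Ly6c2 than IgA and IgM cells, and IgA cells of the control library stood out for Ccr10. This comparison was added after values had been seen, with 15 IgG against 23 IgA and IgM control cells and 22 against 16 DKO cells. Of 841 genes tested, 7 (0.832%) were at least 2-fold higher in IgG cells in both libraries and 55 (6.54%) at least 2-fold lower. The 55 include genes that 1 library hardly measured, since 1 count was added to sums of unequal depth. Ccl5 had 0 CPM in both groups of DKO cells and still stood at −1.09. Bach2 and Hist1h2ap had 0 CPM in DKO IgG cells and 3.73 CPM in the others, at −2.09. How many of the 55 passed in this way was not counted. In single libraries 17.7% (control) and 21.6% (DKO) of the genes passed 2-fold in either direction.

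Slpi encodes a secreted inhibitor of leukocyte proteases. In the control library it ran from 559 to 42943 CPM over the 15 IgG cells, with a median of 10474, and from 0 to 3426 CPM over the 23 IgA and IgM cells, with a median of 1170.5. In the DKO library it ran from 593 to 102970 CPM in the 22 IgG cells, median 31377, and from 0 to 5686 CPM in the 16 others, median 2219. So 11 of 15 control and 19 of 22 DKO IgG cells lay above every IgA and IgM cell of their library, with the remainder inside the others' range. Pooled, the log2 ratio of IgG to IgA and IgM cells was 3.57 (3.44 to 3.70) for control and 4.24 for DKO cells.

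Ly6c2, 1 of the genes behind the Ly6C surface antigen, behaved alike. In control IgG cells it had 555 to 6774 CPM, median 2097, and in control IgA and IgM cells 0 to 1101, median 180 CPM. In DKO IgG cells it had 0 to 16636 CPM, median 3213, and in the others 0 to 1813, median 19.1 CPM. Above every IgA and IgM cell of the library lay 12 of 15 control and 15 of 22 DKO IgG cells. The pooled log2 ratios were 3.32 and 4.66. Ly6a (Sca-1) differed less, with log2 ratios of 1.35 and 1.49 and wide overlap between classes. The other genes of this group were Epcam (1.44 and 1.66), Ccnd2 (2.40 and 1.43), Pon3 (1.21 and 1.99) and Cyp4f18 (2.12 and 1.80). Ly6c2 and Ly6a belong to a family of related genes on chromosome 15, and how reads were split among its members was not tested. Slpi lies on chromosome 2 (164354070 to 164389095) and Ly6c2 on chromosome 15 (75108158 to 75111970).

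Ccr10 encodes the receptor for CCL27 and CCL28 that guides IgA-secreting cells to epithelia. It had a UMI in 16 of 17 control IgA cells, at a median of 183 CPM and up to 367 CPM, in 0 of 6 IgM cells and in 2 of 15 IgG cells. In the DKO library it had a UMI in 2 of 4 IgA cells, 1 of 12 IgM cells and 1 of 22 IgG cells. Over all cells Ccr10 stood at 74.1 CPM in control and 17.9 CPM in DKO cells, below the minimum for the gene-wise comparison. Of the 57 control Ccr10 UMIs 54 were in IgA cells, but of the 15 DKO UMIs 7 were in IgA cells and 7 in 1 IgG2c cell. Among IgA cells alone the log2 ratio of DKO to control was −0.77, from 54 and 7 UMIs.

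Jchain itself was highest in IgA cells, with medians of 82511 CPM in control and 68894 CPM in DKO cells. IgM cells had 29074 and 48397 CPM, and IgG2b cells 26928 and 18025 CPM. Being part of the rule, these levels are a description. Among genes lower in IgG cells, Tmsb4x, which encodes the actin-binding peptide thymosin β4, had log2 ratios of −2.54 and −2.56, and H2-Aa, a chain of MHC class II, −4.20 and −3.59. Runx2 (−3.24 and −3.26) and Fcer1g, the signalling chain of Fc receptors (−4.56 and −3.89), rested on few UMIs in IgG cells. So did H2-Aa, with 3 UMIs in control and 5 in DKO IgG cells. In control cells Runx2 was at 160 CPM in IgA, 9.73 CPM in IgM and 10.4 CPM in IgG cells. DKO IgA and IgM cells together had 8 Runx2 UMIs, 5 of them in 1 cell. Of 47 control Fcer1g UMIs, 20 came from 1 IgM cell. That cell also held 145 of the 167 control UMIs of Lyz2, a myeloid lysozyme gene. Of the control H2-Aa UMIs, 54.7% came from another IgM cell. H2-Aa was at 623 CPM in IgM and 28.5 CPM in IgA cells of the control library. In the DKO library it was at 70.7 CPM in IgM and 272 CPM in IgA cells, with 12 and 15 UMIs from 1 cell each. Depth moved with class, with median UMIs of 30515 in control IgG, 14816 in IgA and 17402 in IgM cells and of 27062, 17175.5 and 17806 in the same classes of the DKO library, and its part in these values was not tested.

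**Figure D3:**
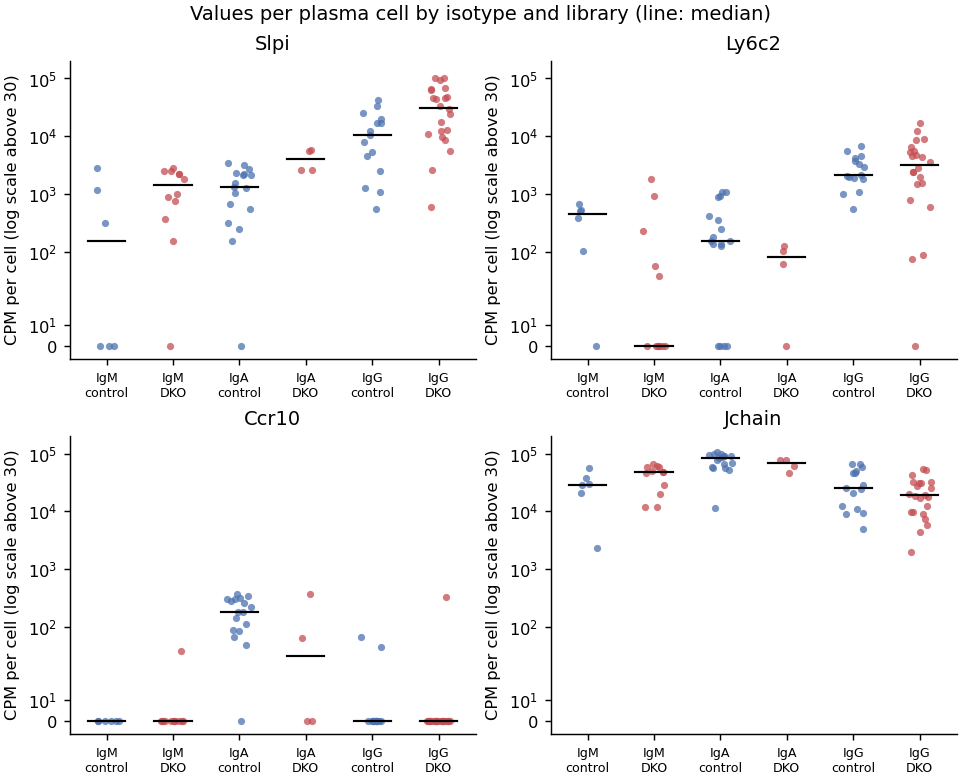
Each point is 1 plasma cell, with its CPM for Slpi, Ly6c2, Ccr10 or Jchain on an axis that is logarithmic above its lowest stretch and includes 0; cells are grouped by heavy chain class and library, and lines mark medians. IgG cells sit highest for Slpi and Ly6c2 in both libraries, IgA cells sit highest for Jchain, and Ccr10 is above 0 in 16 of 17 control IgA cells.

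Compared with B cells of the same library, plasma cells carried more RNA of the secretory machinery and less of the B cell programme. B cells were barcodes with at least 3 Ighd UMIs, an Ms4a1 UMI and under 5 Jchain UMIs (472 control, 508 DKO). Of 2104 genes, 100 (4.75%) were at least 2-fold higher and 1446 (68.7%) at least 2-fold lower in plasma cells in both libraries. This imbalance followed the scale: immunoglobulin took up about as many UMIs as all other genes together, and over the UMIs outside immunoglobulin genes 327 genes were higher and 610 lower, with median log2 ratios moving from −1.50 to −0.38 (control) and from −2.03 to −0.66 (DKO). Against plasmacytoid dendritic cells (at least 3 Siglech UMIs; 397 and 127 barcodes), a secretory cell type that shares several of the marker genes, 86 of 2128 genes (4.04%) were higher and 1465 (68.8%) lower.

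Of the ER chaperones and folding enzymes, 14 of 21 were higher than in B cells in both libraries and 0 lower, with median log2 ratios of 2.02 (control) and 2.18 (DKO). Txndc5, a disulfide isomerase, was at 3.90 and 3.43, Creld2 at 4.06 and 4.71, and Hsp90b1, the ER form of HSP90, at 2.63 and 2.85. Of the genes of ER-associated degradation, 9 of 10 were higher, or 8 of 9 without Derl3, which the rule used and which stood at 7.31 and 7.92. Herpud1 was at 2.26 and 2.81. The translocon, which threads new chains into the ER, had 7 of 14 genes higher, among them Sec11c of the signal peptidase (2.50 and 2.78). N-glycosylation had 2 of 9 genes higher and 1 lower, and ER to Golgi traffic 3 of 7 higher. Scaled without immunoglobulin UMIs, the counts higher were 20 of 23, 13 of 13, 13 of 19, 9 of 10 and 14 of 18 for the same 5 lists, with 0 lower in each. Against plasmacytoid dendritic cells fewer passed 2-fold, on the scale of all UMIs: 9 of 22 folding genes were higher and 1 lower, 7 of 10 of ER-associated degradation higher, 4 of 17 of the translocon higher and 1 lower, 0 of 9 of N-glycosylation and 1 of 10 of traffic higher. Without immunoglobulin UMIs these counts higher were 19 of 23, 10 of 13, 9 of 19, 6 of 9 and 7 of 18, with 0 lower in each. Over all genes 273 of 2416 were then higher and 626 lower.

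Transcription factors of plasma cells had 5 of 8 genes higher, or 4 of 7 without Xbp1, which the rule used and which stood at 4.95 and 4.68. Prdm1 was at 6.15 and 5.89, and Irf4 at 2.15 and 2.11. Of the surface, survival receptor and homing genes, 8 of 18 were higher and 6 lower, with median log2 ratios of 0.36 (control) and 0.04 (DKO). Among them, Sdc1 was at 5.05 and 5.43. Tnfrsf17 had 0 UMIs in the B cells of either library, against 138 and 97 UMIs in plasma cells. B cell identity and antigen presentation had 18 of 20 genes lower and 0 higher, at medians of −3.91 and −5.27, or 17 of 19 without Ms4a1, by which the B cells were chosen. Cd74, the invariant chain of MHC class II, was an exception in size, at −0.90 and −0.51, and Cd79a, of the B cell receptor, was at −1.67 and −1.69. Ribosomal protein genes were lower for 44 of 80, but when scaled without immunoglobulin UMIs 2 of 80 were higher and 1 lower.

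The promoters of the secretory genes are shown because the ER stress response element (ERSE), CCAAT, then 9 bases, then CCACG, is the site through which XBP1 and ATF6 are known to act on ER chaperone genes. It was sought on both strands in the 250 bases before each start, in RefSeq windows of GRCm38.p6, beside TGACGTG and GCCACG; matches of GCCACG may overlap an ERSE. Of 89 genes on the 5 secretory lists, 74 had a window. ERSE was in 9 of their 87 windows (10.3%), against 0.113% of all 32851 windows and 1.23% of 648 windows of genes with at least 100 CPM in plasma cells. TGACGTG was in 8.05%, against 1.65% of all windows and 3.55% of those of genes with at least 100 CPM. GCCACG was in 41.4%, against 10.96% and 18.8%. The 9 genes were Hsp90b1, Calr, Hspa5, Pdia6, Dnajc3, Creld2 and Canx among the 21 folding genes with a window, and Derl3 and Syvn1 among 13 of ER-associated degradation. The lists include known ERSE genes, so these shares describe the lists and are no independent evidence. Stretches around the ERSE follow for 5 genes, 5′ to 3′ along the gene, with both ends of the element in capitals (CGTGG and ATTGG where it lies on the other strand).
Hspa5 (chr2:34772005-34772063, strand +): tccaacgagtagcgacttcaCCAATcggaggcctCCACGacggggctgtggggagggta
Dnajc3 (chr14:118937807-118937865, strand +): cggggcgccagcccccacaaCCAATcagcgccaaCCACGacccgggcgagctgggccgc
Creld2 (chr15:88819500-88819558, strand +): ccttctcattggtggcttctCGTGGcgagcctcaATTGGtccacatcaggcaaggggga
Pdia6 (chr12:17266471-17266529, strand +): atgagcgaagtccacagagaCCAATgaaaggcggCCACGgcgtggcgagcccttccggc
Derl3 (chr10:75893222-75893280, strand +): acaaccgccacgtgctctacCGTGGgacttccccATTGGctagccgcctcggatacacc

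Among these ERSE genes the plasma cell levels were 338 CPM (control) and 635 CPM (DKO) for Hspa5, which encodes the ER chaperone BiP, 272 and 467 CPM for Dnajc3, a co-chaperone of BiP, 213 and 300 CPM for Creld2, 348 and 337 CPM for Pdia6, and 149.5 and 178 CPM for Derl3. A match is a description of the sequence and does not show that a factor was bound.

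Between DKO and control plasma cells most genes of the secretory machinery lay within 2-fold. Of 651 genes with at least 100 CPM in a library, immunoglobulin genes left out, 12 (1.84%) were at least 2-fold higher and 52 (7.99%) at least 2-fold lower in DKO cells, with a median log2 ratio of −0.25 over all genes tested. Over UMIs outside immunoglobulin genes, 43 were higher and 89 lower of 1483, the median was −0.09, and the share of higher genes among those past 2-fold went from 18.8% to 32.6%. On the scale of all UMIs 0 secretory genes passed 2-fold: 0 of 20 folding genes (median 0.10), 0 of 10 of ER-associated degradation (0.09), 0 of 13 of the translocon (−0.16), 0 of 8 of N-glycosylation (−0.10) and 0 of 7 of ER to Golgi traffic (−0.08). Over UMIs outside immunoglobulin genes, 2 of 23 folding genes were higher, Hspa5 at 1.05 and the chaperone gene Hyou1 at 1.42, as was 1 of 13 of ER-associated degradation, Syvn1 at 1.02, and 0 of 19, 0 of 9 and 0 of 18 of the other 3 lists passed 2-fold. On the scale of all UMIs, 5 of the 20 folding genes had intervals above 0 and 3 below. Of ER-associated degradation, 2 of 10 lay above and 2 below, and of the translocon 0 of 13 above and 3 below. N-glycosylation had 1 of 8 above and 0 below, and traffic 0 of 7 on either side. Over all 651 genes tested, 70 intervals lay above 0 and 270 below. Hspa5 had a log2 ratio of 0.91 (0.69 to 1.13), Herpud1 0.79 (0.56 to 1.02), Dnajc3 0.78 (0.54 to 1.03) and Sel1l, of the ER degradation complex, 0.67 (0.45 to 0.90), while Txndc5 stood at −0.79 (−0.93 to −0.65). Hspa5 ran from 0 to 26 UMIs per control cell, median 5, and from 0 to 70 per DKO cell, median 9, so the cells of both libraries overlapped. Among plasma cell factors 0 of 8 passed 2-fold, with Xbp1, which the rule used, at −0.64 (−0.79 to −0.50), Prdm1 at −0.63 (−1.16 to −0.11), or −1.15 with every cell weighted alike, and Zbtb20 at 0.52 (0.30 to 0.74).

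**Figure D4:**
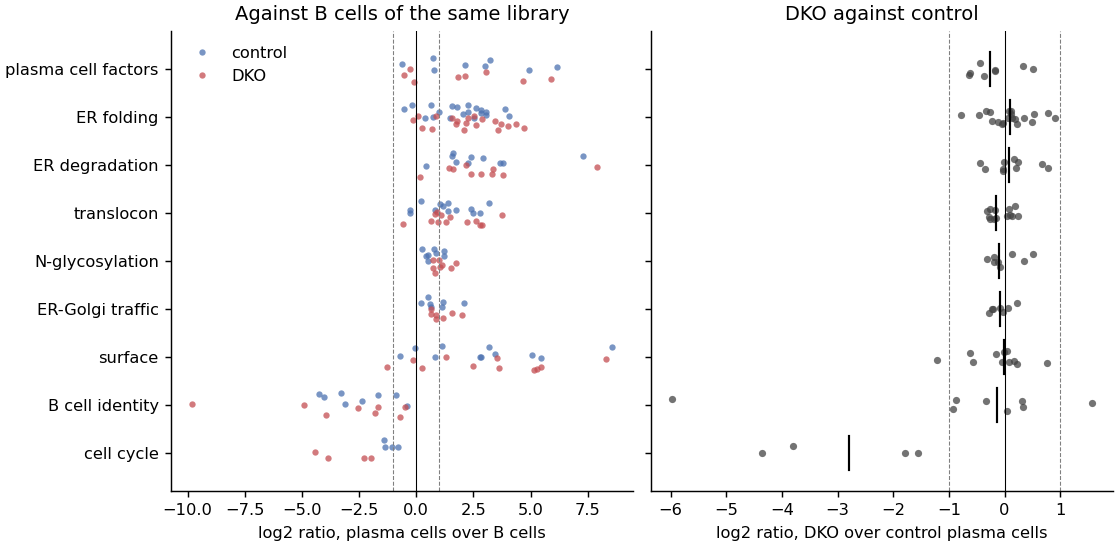
Each point is 1 gene with at least 100 CPM in the plasma cells of a library. The left panel gives its log2 ratio of plasma cells over B cells within each library and the right panel its log2 ratio of DKO over control plasma cells, with list medians as short lines and 2-fold as dashed lines; the secretory lists sit mostly right of 0 on the left and within 2-fold on the right, and the 4 cell cycle genes sit left of −1 on the right.

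The 4 cell cycle genes tested were all at least 2-fold lower in DKO cells: Stmn1 at −4.35, Hmgb2 at −3.79, Tubb5 at −1.79 and H2afz at −1.55. These sums came from few cells. A cell was called cycling with a UMI each of Mki67 and Top2a and 5 or more over the cycle list, which held for 6 control cells (15.8%, 6.02 to 31.3) and 1 DKO cell (2.63%, 0.0666 to 13.8). The 6 control cells, 4 IgA, 1 IgM and 1 IgG1, held 85.3% of the control cycle UMIs. Thinned to 3000 UMIs, 3 of 38 control and 0 of 30 DKO cells were called, 0 of 30 reaching up to 11.6% by the exact interval. Without cycling cells Stmn1 was at −0.31, Hmgb2 at −0.65, H2afz at −0.37 and Tubb5 at 1.01, and the number of genes lower in DKO cells went from 52 to 25. Hist1h2ap (−6.78), Hist1h1b (−4.02) and Tuba1b (−2.80), histone and tubulin genes, were also among the 10 lowest, and without cycling cells they stood at −2.77, 0.69 and 0.07.

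Single cells carried other differences. Bach2, a repressor that opposes plasma cell differentiation, had 115 control UMIs and 1 DKO UMI, and 83.5% of the control UMIs came from 1 cycling IgM cell. That cell also had 45 Mki67 and 10 Ms4a1 UMIs and the lowest immunoglobulin share, 3.15%. Lyz2, a myeloid lysozyme gene, had 167 and 15 UMIs, 86.8% of the former from 1 other IgM cell. The hemoglobin genes Hba-a1 (2.59), Hbb-bt (2.37), Hbb-bs (2.29) and Hba-a2 (1.58) were higher in the DKO library, with 62.9% to 73.7% of their DKO UMIs from 1 IgG2c cell that had 17.1% hemoglobin UMIs. Within the 12 IgG2b cells of each library these 4 genes lay between −0.43 and −0.24 and within IgA cells between −1.15 and −0.61, but within IgM cells between 1.36 and 2.36, where 1 DKO cell had 4.55% hemoglobin UMIs. Without the IgG2c cell they lay between 0.21 and 0.75. Hist1h2bc (1.89) had 78.0% of its DKO UMIs in 1 IgG2b cell.

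Slpi was at 8596 CPM in control and 27928 CPM in DKO cells, a log2 ratio of 1.70 (1.66 to 1.74), and within classes it was at 1.42 among IgG2b, 1.35 among IgA and 1.15 among IgM cells. Ly6c2 was at 0.76 over all cells, at 0.78 among IgG2b cells, and at −1.83 among IgA and −0.87 among IgM cells, where it had few UMIs. Mt1, which encodes the metal-binding protein metallothionein, was at 2.21 (1.86 to 2.60), with 20 control and 24 DKO cells having a UMI, and at 0.77 among IgG2b, 3.21 among IgA and 3.17 among IgM cells. In the DKO library, 28 of the 29 IgA UMIs of Mt1 came from 1 cell, and 36 of the 51 IgM UMIs from 1 cell. Control IgA and IgM cells had 12 and 2 Mt1 UMIs. Rhob, a small GTPase, was at 1.57, Chst1, a sulfotransferase, at 1.47 and Ms4a1 (CD20) at 1.56, with Ms4a1 found in 8 control and 18 DKO cells and 95 of its 102 DKO UMIs in IgG cells. Tmsb4x was at −2.61 (−2.86 to −2.38) over all cells, at −1.67 among IgG2b, −0.71 among IgA and −3.60 among IgM cells, and at −1.56 with every cell weighted alike. Of its 985 control UMIs, 49.9% came from 3 cells, 2 of them IgM and 1 IgA. Plac8, at −2.73, and Ifitm3, an interferon-induced membrane protein gene, at −3.00, were at −1.39 and −2.97 among IgG2b, −0.15 and −1.22 among IgA, and −4.53 and −3.67 among IgM cells. Of the 32 control IgM UMIs of Ifitm3, 30 came from 1 cell, the IgM cell that held most control Lyz2 UMIs. The IgG2b values rested on 4 control UMIs and 1 DKO UMI for Plac8, and on 14 and 1 for Ifitm3.

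Cell surface genes had 0 of 11 higher and 1 lower. Ly6k, at −1.21, was found in 4 control and 5 DKO cells only. Tnfrsf17 was at −0.63 (−1.02 to −0.25), Tnfrsf13b (TACI, another receptor for the survival factors BAFF and APRIL) at −0.57 (−0.91 to −0.23) and Sdc1 at 0.18 (−0.20 to 0.56). B cell identity had 1 gene higher (Ms4a1) and 1 lower (Bach2) of 8. Of the interferon-stimulated genes 2 of 5 were lower, Bst2, which encodes tetherin, at −1.22 (−1.58 to −0.88) and Ifi27l2a at −1.43 (−2.10 to −0.84), while Ly6e and Psmb8 were at 0.14 and −0.00. Of the integrated stress response 2 genes could be tested, Slc3a2, an amino acid transporter subunit, at 0.94 (0.72 to 1.17) and Phgdh at −0.07. Over UMIs outside immunoglobulin genes 2 of 4 were higher, Slc3a2 at 1.08 and its partner Slc7a5 at 1.24. Mcl1, on which plasma cells depend for survival, was at −0.17 (−0.46 to 0.13) and Bcl2 at −0.04. The p53 targets had 1 tested gene, Trp53inp1, at −0.86. Ribosomal protein genes had 0 of 80 higher and 1 lower, Rpl22l1 at −1.01, with a list median of −0.27 near that of all genes.

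Ddx41 was detected at low depth in these cells. It had 14 control and 9 DKO UMIs, or 18.2 CPM (9.95 to 30.5) and 10.8 CPM (4.92 to 20.4), a log2 ratio of −0.71 (−2.15 to 0.55), so a difference was not detectable at this depth. Over all barcodes it was at −1.34 and in B cells at −1.12. Cgas had 3 UMIs in control and 0 in DKO plasma cells, where 0 allows up to 3.58 CPM at a limit of 3 UMIs (4.41 CPM by the exact interval). Tags at the 3′ end do not show whether the floxed exons were lost, and Ddx41 and Cgas RNA stayed detectable over all DKO barcodes, so these values do not check the label of each cell.

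RNA of most other lineages was low in the members. Erythroid markers had 8 of 8 genes with a UMI in both libraries, at 0.0813% to 0.353% of UMIs per control cell and 0.0903% to 17.1% per DKO cell, with medians of 0.207% and 0.157% and 4 DKO cells over 1%. Neutrophil markers had 9 of 9 genes in both libraries, at up to 0.168% and 0.314% per cell. Monocyte markers reached 0.896% in control and 0.0698% in DKO cells, with Vcam1 at 0 in both. B precursor markers had 4 of 5 genes in control and 1 of 5 in DKO cells, at up to 0.0692% and 0.163%, with Rag1 at 0 in both. Pooled, they were at 142 CPM in control and 115 CPM in DKO members, against 257 and 231 CPM in all other barcodes. Of the plasmacytoid dendritic cell markers, Cd209d and Klk1 were at 0 in both libraries, as was Siglech, which the rule required, and the list reached 0.217% and 0.0736%. Pooled, this list was at 237 CPM in control and 189 CPM in DKO members, above the 210 and 134 CPM of all other barcodes. In control members its UMIs were all from Tcf4. T and NK cell markers had 20 UMIs in control and 0 in DKO cells, basophil markers 4 and 0, megakaryocyte markers 38 and 2, and stromal and endothelial markers 0 and 1. None of the members was called a doublet by Scrublet.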

How the data were processed

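Single-cell 3′ RNA libraries (Chromium 3′ v3) of femoral marrow were compared, 1 library from 1 mouse per genotype. The deposited matrices hold raw UMI counts per gene and barcode, which the authors made with Cell Ranger 7.1.0 (file headers) on mm10 (submitters' processing notes). The annotation release is not given in the sources used here. Of 32285 gene identifiers, 32158 matched the GENCODE annotation of GRCm38 used for positions.

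The members and gene lists were chosen with earlier results of these data known. Counts were summed over members, scaled to CPM over all UMIs, and compared as log2 ratios with 1 count added to each sum, for genes of at least 100 CPM; past 2-fold means an absolute log2 ratio of 1 or more. No test across samples was possible with 1 library per genotype. Intervals are Clopper-Pearson for shares, Poisson for CPM and conditional binomial for ratios, and the ratio script was tested on simulated data. Heavy and light chain calls needed at least 10 UMIs and 60% of the constant UMIs, V calls at least 5 UMIs and 60% of the V UMIs. Scrublet was run through scanpy 1.11.5 at the DKO threshold of 0.228, which marked 1.59% of control and 1.42% of DKO barcodes; the automatic control threshold of 0.637 marked 0 barcodes. Python 3.11.15, numpy 2.4.6 and scipy 1.17.1 were used. Named genes were the marker, target and constant genes, the members with the largest log2 ratios and the highest CPM of each list, and the 10 largest increases and decreases among genes found in at least 20% of the cells of the higher library; genes of the class comparison were named after their values were seen.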

Additional observations from a re-analysis of the deposited data

How the results depend on the processing

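No paired analysis was possible because each genotype had 1 library, and for the same reason no replicate could be left out. Depth limits all values: sums rest on 38 cells per library, and 11 DKO cells had fewer than 5000 UMIs. Of 110 alternative values of the shares and counts, 75 stayed near the value reported and 35 moved. The number of genes at least 2-fold higher and lower in DKO cells (12 and 52) was 43 and 89 scaled without immunoglobulin UMIs, 45 and 85 without hemoglobin UMIs too, 7 and 12 at a minimum of 300 CPM, 112 and 443 at 20 CPM, and 26 and 94 with every cell weighted alike. Without cycling cells 25 were lower. Among IgA cells alone 178 were higher, among IgM cells 36 higher and 492 lower, and among IgG2b cells 26 higher and 20 lower. The last alternative, those without cells under 5000 UMIs or without the hemoglobin-rich cell, and the rescalings against other cells and between classes were chosen after seeing the data. Scaled without immunoglobulin UMIs, genes higher and lower in IgG cells were 30 and 84 (11 higher with cells weighted alike), in plasma cells against B cells 327 and 610, and against plasmacytoid dendritic cells 273 and 626. With hemoglobin-rich barcodes out of the denominator the plasma cell share was 0.306% (control) and 0.453% (DKO). The immunoglobulin share was 49.9% and 51.4% as the median over cells, 50.8% and 54.4% at a Jchain minimum of 50, 53.7% at 10 (DKO), and 49.7% and 54.4% without cells under 5000 UMIs. By the cycle list alone 36.8% and 26.3% of cells were cycling, and 0% of DKO cells when thinned. Among genes past 2-fold, single genes changed direction. Ly6k went to 0.019 with cells weighted alike. Without cycling cells Hist1h1b went to 0.69, Tuba1b to 0.067 and Tubb5 to 1.01. Among IgA cells Hba-a1 went to -0.62, Hba-a2 to -0.61, Hbb-bs to -0.63, Hbb-bt to -1.15, Lyz2 to 2.01 and Rhob to -1.32. Cgas stood at 1.01 there, but DKO plasma cells had 0 Cgas UMIs, so this value came from the 1 count added. Among IgM cells Ccr10 went to 0.054, Hist1h2bc to -0.36, Ly6k to 2.22 and Ms4a1 to -1.72. Among IgG2b cells Hba-a1 went to -0.29, Hba-a2 to -0.43, Hbb-bs to -0.32, Hbb-bt to -0.24, Hist1h1b to 0.93 and Rpl22l1 to 0.52. Another 9 named genes within 2-fold changed sign in 15 alternative values, among them Jchain to 0.66, Mzb1 to -1.65, Derl3 to -0.69, Tnfrsf17 to 0.38 and Ddx41 to 0.38 among IgM cells, Ly6c2 to -1.83, Ly6a to -0.85 and Ddx41 to 0.69 among IgA cells, and Sdc1 to -0.27 with cells weighted alike. The cause of the other changes was not tested.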
